A study of Mus musculus with 8 samples.

Results

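Ketone body synthesis and export in the liver were examined through 5 genes, *Acat1*, *Bdh1*, *Slc16a1*, *Slc16a7* and *Slc16a6*, taken by symbol from the 16540 genes of the count table. All 5 were in the table, and all 5 were among the 12307 genes that passed the filter on low counts. The livers came from ApoE-/- mice on a Western diet (high in cholesterol by the study's methods), a genotype and diet that give mice high plasma cholesterol and atherosclerosis. The 4 ISOGK-treated mice had received isoginkgetin, a biflavonoid from *Ginkgo biloba* that the study examined as an inhibitor of ATP citrate lyase, by intraperitoneal injection at 20 mg/kg per day for 8 weeks, and the 4 vehicle-treated mice had received the solvent, named DMSO in the count table. Both groups carried the Apoe-/- genotype and the diet, and the comparison therefore holds no liver of a mouse without them. The sex and age of these mice, and whether they were fasted before the liver was taken, are not given in the sources used here.

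Ketone bodies are made in the mitochondria of hepatocytes when fatty acid oxidation supplies more acetyl-CoA than the citric acid cycle uses. ACAT1 joins acetyl-CoA units into acetoacetyl-CoA, further mitochondrial enzymes turn this into acetoacetate, and BDH1 reduces acetoacetate to beta-hydroxybutyrate. The liver holds little of OXCT1, the enzyme that would use ketone bodies, and releases them through monocarboxylate transporters such as MCT1 (*Slc16a1*) and MCT2 (*Slc16a7*). The transporter SLC16A6 has been linked to the release of beta-hydroxybutyrate from hepatocytes in animals deprived of food.

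One library was sequenced per mouse, with 17457106 to 24461854 counts on genes. Vehicle-treated mouse 4 stood apart, since its 10 skeletal muscle markers summed to 82.0 CPM (counts scaled to a common library size, with edgeR's TMM factors), while the other 7 libraries reached at most 0.629 CPM. ISOGK-treated mouse 4 also stood apart, with the lowest TMM factor (0.883, against 0.96 to 1.089 in the others) and the largest count differences from its group (chi-square 85.9 to 99.8 per gene, against 33.1 to 67.1 between the other 3). It had 16850 CPM of *Fgb*, a fibrinogen gene, against 5799 to 7369 CPM in the others, and 5.34 CPM of the Kupffer cell marker *Vsig4*, against 75.0 to 104.1 CPM. The other Kupffer cell and macrophage markers showed no drop of this size. *Clec4f*, *Adgre1* and *Csf1r* had 163.0, 37.0 and 80.7 CPM in this mouse, and 166.5, 37.1 and 85.9 CPM in ISOGK-treated mouse 2. *Cd68* and *Cd5l*, at 34.4 and 520 CPM, lay within the range of the other ISOGK-treated mice. All 6 hepatocyte markers, *Alb* and *Cps1* among them, were abundant in every library (summed level 130800 to 176500 CPM). In whole liver, fewer cells of a type and less RNA per cell cannot be told apart.

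The sequence before the start of the gene is shown for the transporter gene that rose with ISOGK, *Slc16a1*, and for *Bdh1*, an enzyme gene with no detectable change. RefSeq promoter sequences (GRCm38.p6) were at hand for these 2 of the 5 genes. Each run is the plus strand, 5′ to 3′, of the 250 bases before the start as RefSeq lists it, chr3:104638414-104638663 for *Slc16a1* and chr16:31422047-31422296 for *Bdh1*, with an E-box in capitals.
Slc16a1: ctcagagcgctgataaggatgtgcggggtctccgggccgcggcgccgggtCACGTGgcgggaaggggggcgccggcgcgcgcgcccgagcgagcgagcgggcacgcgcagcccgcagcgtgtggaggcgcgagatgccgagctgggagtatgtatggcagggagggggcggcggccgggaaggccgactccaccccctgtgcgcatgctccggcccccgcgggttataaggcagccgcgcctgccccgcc
Bdh1: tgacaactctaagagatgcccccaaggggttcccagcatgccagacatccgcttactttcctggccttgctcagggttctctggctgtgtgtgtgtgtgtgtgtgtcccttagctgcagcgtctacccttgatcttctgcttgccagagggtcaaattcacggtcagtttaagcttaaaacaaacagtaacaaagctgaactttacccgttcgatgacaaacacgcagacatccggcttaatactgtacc
Of the *Bdh1* window, 17 bases lie in an annotated exon. The *Slc16a1* window was 76.4% G and C and the *Bdh1* window 49.6%. Both strands were searched for the E-box CACGTG, for the nuclear receptor half-site AGGTCA and for the direct repeat of that half-site with 1 base of any kind between the copies, to which PPAR and RXR bind as a pair. The *Slc16a1* window held 1 E-box, which began 200 bases before the start. An E-box at any position, in 1 or more copies, was in 6.02% of all 32851 windows of this length. The half-site was in 14.0% of all windows and the spaced repeat, every copy of which also holds the half-site, in 0.0335%. Neither was in the *Slc16a1* window, and none of the 3 motifs was in the *Bdh1* window printed or in that of its second listed start.

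Of the 5 genes, *Slc16a1* rose in ISOGK-treated mice, and the other 4 did not pass the test in either direction. *Slc16a1* encodes MCT1, which carries lactate, pyruvate and ketone bodies together with a proton, and its mean level was 2.45 times as high with ISOGK. The genes of both enzymes and of the other transporters had fitted changes between -0.33 and 0.30 on the log2 scale. In edgeR's quasi-likelihood test, with Benjamini-Hochberg adjustment over all genes, 7.55% of the genes tested passed an adjusted p under 0.05, with 4.11% higher and 3.44% lower. Of the 5 genes, 1 passed this threshold and 2 had an unadjusted p under 0.05, against 24.2% of all genes tested. None of the 5 genes was lower in edgeR at an unadjusted p under 0.05 either, and DESeq2 and limma-voom also called 0 of them lower. The Wald test of DESeq2 called 2 of the 5 higher, adding *Acat1* to *Slc16a1*.

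**Figure D1:**
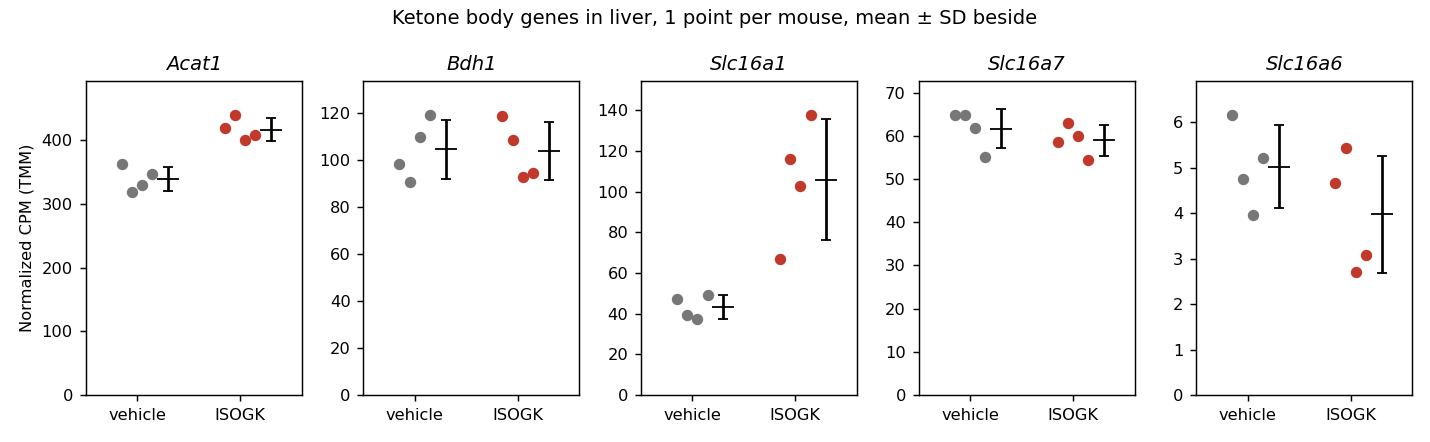
Normalized CPM of the 5 genes in each liver, with 1 point per mouse (grey, vehicle; red, ISOGK) and the mean ± SD (n = 4) beside the points; each panel has its own axis, which starts at 0. All 4 ISOGK-treated mice lie above all vehicle-treated mice for *Slc16a1* and *Acat1*, while the groups overlap for *Bdh1*, *Slc16a7* and *Slc16a6*.

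*Slc16a1* lies on the plus strand of chromosome 3, from 104638668 to 104658462 in GRCm38. In the vehicle-treated mice it had 47.4, 39.4, 37.1 and 49.0 CPM. In the ISOGK-treated mice it had 67.0, 115.9, 102.6 and 137.9 CPM. Every ISOGK-treated mouse thus lay above every vehicle-treated mouse, a separation found for 7.92% of the genes tested in this direction and 7.36% in the other, and ISOGK-treated mouse 1 was the closest to the vehicle group. The means were 43.2 ± 5.82 and 105.9 ± 29.7 CPM (SD, n = 4 per group), and the SD rose from 13.5% to 28.1% of the mean. The log2 fold change (log2FC) was 1.29 (standard error, SE, 0.20, adjusted p = 0.00449 in edgeR), past the study's threshold of 1, which 1.63% of the genes tested passed in either direction and 0.999% as higher genes. Each library held 944 to 2633 counts of the gene, so that the spread between mice, and not counting, set its precision.

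The change of *Slc16a1* did not rest on 1 mouse. Without ISOGK-treated mouse 4, the highest, the log2FC was 1.14 (adjusted p = 0.00752 in edgeR), and without ISOGK-treated mouse 1, the lowest, it was 1.46. Without vehicle-treated mouse 4, the library with muscle markers, it was 1.36 (adjusted p = 0.012 in edgeR). Among markers of other liver cells, those of cholangiocytes moved in the same direction, with 1 of 4 called (*Sox9*, higher) and a summed level of 6.12 to 7.59 CPM with vehicle and 7.70 to 14.1 CPM with ISOGK. None of the 4 was at 0. In ISOGK-treated mouse 4 the cholangiocyte sum was the lowest of its group, at 7.70 CPM. The part of these cells in the change of *Slc16a1* was not tested, and 1 library cannot decide it. Of 6 Kupffer cell and macrophage markers, 1 was called lower (*Cd68*), and their sum was 1037 to 1226 CPM with vehicle and 828 to 1045 CPM with ISOGK.

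**Figure D2:**
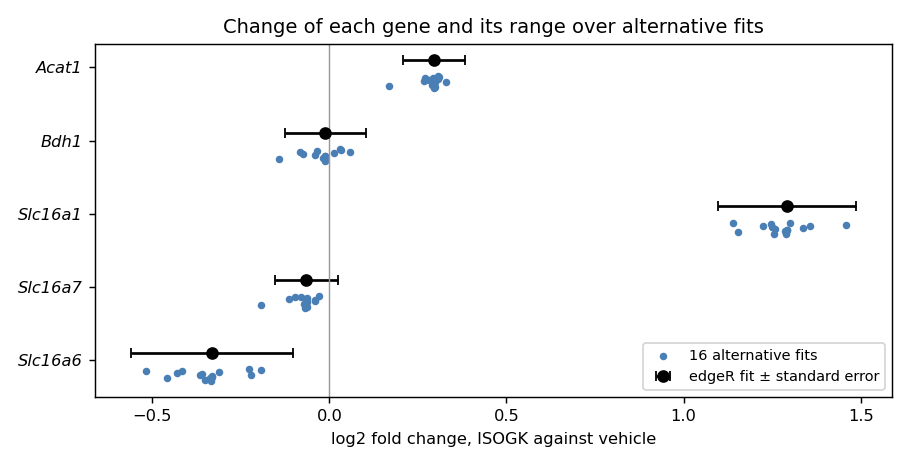
Log2 fold change of each gene, ISOGK against vehicle, from the edgeR fit (black, with its standard error) and from 16 alternative fits with other tests, scalings, filters or 1 mouse left out (blue). *Slc16a1* stayed between 1.14 and 1.46, while the points for *Bdh1* lie on both sides of 0.

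The genes of the enzymes moved less. *Acat1* encodes the mitochondrial acetoacetyl-CoA thiolase, which acts in ketone body synthesis, in the use of ketone bodies outside the liver and in the last step of isoleucine breakdown (chromosome 9, 53580522 to 53610382, minus strand). It had 362, 318, 329 and 347 CPM in vehicle-treated mice and 419, 440.1, 399.8 and 407 CPM in ISOGK-treated mice. The groups did not overlap, and the step was small and even, with means of 339 ± 19.5 and 417 ± 17.5 CPM (SD, n = 4 per group). The log2FC of 0.30 had an SE of 0.09 and did not pass edgeR's test (adjusted p = 0.0637, unadjusted p = 0.00556). DESeq2 gave the same size, 0.29, with an adjusted p of 0.00527, and with library size as the only scaling the change was 0.17 (adjusted p = 0.266 in edgeR). Without ISOGK-treated mouse 4 it was 0.31 (adjusted p = 0.0707 in edgeR). Over all 16 alternatives the adjusted p of *Acat1* lay between 0.00527 and 0.266.

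*Bdh1* encodes the mitochondrial dehydrogenase that reduces acetoacetate to beta-hydroxybutyrate (chromosome 16, 31422280 to 31458901, plus strand). Its levels were 98.5, 90.8, 109.9 and 119.5 CPM with vehicle and 118.9, 108.9, 92.8 and 94.8 CPM with ISOGK. The highest and the lowest mice of the groups lay within about the same range. The means were 105 ± 12.6 and 104 ± 12.3 CPM (SD, n = 4 per group), a log2FC of -0.01 with an SE of 0.11 (adjusted p = 0.966 in edgeR). An interval of 2 SE either side ran from -0.24 to 0.22, so that a change as large as that of *Slc16a1* lay outside it. An antisense gene, *Gm15743*, overlaps *Bdh1*, shares 11.1% of its 50-base stretches and is not among the genes analysed here. Whether reads were counted by strand is not given in the sources used here.

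Neither of the other transporter genes passed the test. *Slc16a7* encodes MCT2, a carrier with a higher affinity for monocarboxylates than MCT1 (chromosome 10, 125219270 to 125389465, minus strand). It had 64.9, 65.0, 61.8 and 55.2 CPM with vehicle and 58.6, 63.0, 59.9 and 54.5 CPM with ISOGK. It was the steadiest of the transporter genes between mice, with an SD of 7.4% and 6.0% of the mean. Its log2FC was -0.07 (SE 0.09, adjusted p = 0.704 in edgeR), with 2 SE either side reaching from -0.24 to 0.11.

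*Slc16a6* was the least abundant of the 5 (chromosome 11, 109450855 to 109473598, minus strand). The vehicle-treated mice had 6.17, 4.75, 3.97 and 5.23 CPM. The ISOGK-treated mice had 4.66, 5.44, 2.71 and 3.09 CPM, and 2 of these 4 lay below all vehicle-treated mice. The log2FC was -0.33 with an SE of 0.23 (adjusted p = 0.41 in edgeR). With 48 to 123 counts per library, 2 SE either side left room for changes between -0.79 and 0.13, the widest interval of the 5 genes. On the opposite strand, *Amz2* overlaps the end of the gene, and 21.2% of its 50-base stretches recur in transcripts of other genes, mainly *Amz2*, so that some of its reads could have been counted elsewhere or come from there. For *Slc16a1* and *Acat1* none of the 50-base stretches recurred in transcripts of another gene.

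Ratios within a library do not depend on how libraries are scaled against each other, and were taken to ask whether the genes changed by unequal amounts. All 10 pairs were compared by two-sided exact permutation tests, for which 0.0286 is the smallest p that 4 mice against 4 allow. The log2 ratio of *Slc16a1* to *Slc16a7* was -0.45, -0.72, -0.73 and -0.17 in the vehicle-treated mice. In the ISOGK-treated mice it was 0.19, 0.88, 0.77 and 1.34. All ISOGK-treated livers thus lay above all vehicle-treated livers. These ratios are not divided by gene length, so that their sign does not rank the levels of the 2 genes. The difference of 1.32 had an SE of 0.27 (exact permutation p = 0.0286, adjusted p = 0.0571 over 10 pairs), and without ISOGK-treated mouse 4 it was 1.14.

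The ratios of *Slc16a1* to *Acat1*, *Bdh1* and *Slc16a6* rose by 0.96, 1.26 and 1.62 on the log2 scale, with the groups apart in each and the same p-values. *Acat1* also gained on *Slc16a7*, by 0.36 with an SE of 0.08 (exact permutation p = 0.0286, adjusted p = 0.0571), and the groups did not overlap. The ratio of *Acat1* to *Bdh1* was 1.88, 1.81, 1.58 and 1.54 with vehicle and 1.82, 2.01, 2.11 and 2.10 with ISOGK. The groups overlapped in 1 ISOGK-treated mouse (exact permutation p = 0.0571, adjusted p = 0.0816). No pair passed an adjusted p under 0.05. The 5 pairs whose groups did not overlap had the smallest exact permutation p possible, 0.0286, which became 0.0571 over 10 pairs. With 4 mice per group these tests had little room to pass, so this outcome does not show equal changes. The pairs with *Slc16a1* share that gene and are not independent. *Bdh1* to *Slc16a7* was the pair with the smallest difference, 0.05 with an SE of 0.16 (exact permutation p = 0.771).

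**Figure D3:**
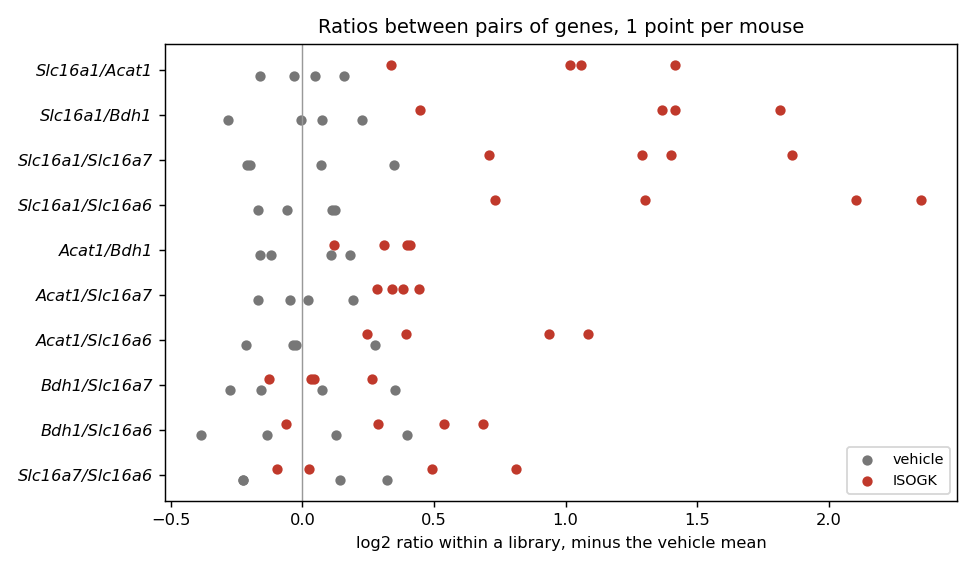
Log2 ratio of CPM between the 2 genes of each of 10 pairs within each library, minus the mean of the vehicle group, with 1 point per mouse (grey, vehicle; red, ISOGK). In the 4 ratios with *Slc16a1* on top and in *Acat1*/*Slc16a7*, all ISOGK-treated mice lie to the right of all vehicle-treated mice, and in the other 5 the groups overlap.

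Levels were compared between genes only per length, as CPM per kb of exon. In vehicle-treated mice *Acat1* had the highest level per length of the 5 genes, 90.3 ± 5.18 CPM per kb (SD, n = 4), followed by *Bdh1* with 26.9 ± 3.24 and *Slc16a1* with 9.77 ± 1.32. *Slc16a7* had 5.21 ± 0.388 and *Slc16a6* 1.03 ± 0.188 CPM per kb, and the gaps between neighbours in this order exceeded their SDs. In ISOGK-treated mice *Slc16a1* reached 23.9 ± 6.72 CPM per kb, and its gap to *Bdh1*, with 26.7 ± 3.17, was smaller than the SD of either gene. *Slc16a1* made up 61.3%, 58.0%, 58.2% and 65.9% of the summed level per length of *Slc16a1*, *Slc16a7* and *Slc16a6* in the vehicle-treated livers. In the ISOGK-treated livers it made up 72.0%, 80.3%, 80.5% and 85.6%, without overlap. Among the 10 tested *Slc16* genes compared here, *Slc16a1* ranked 2 to 3 by level per length in vehicle-treated mice, with *Slc16a10*, a carrier of aromatic amino acids, at a mean of 17.5 CPM per kb. It ranked 1 to 2 in ISOGK-treated mice, and its share of the summed level per length of the 10 genes was 18.5% ± 1.81 with vehicle and 34.3% ± 8.47 with ISOGK (SD, n = 4 per group).

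**Figure D4:**
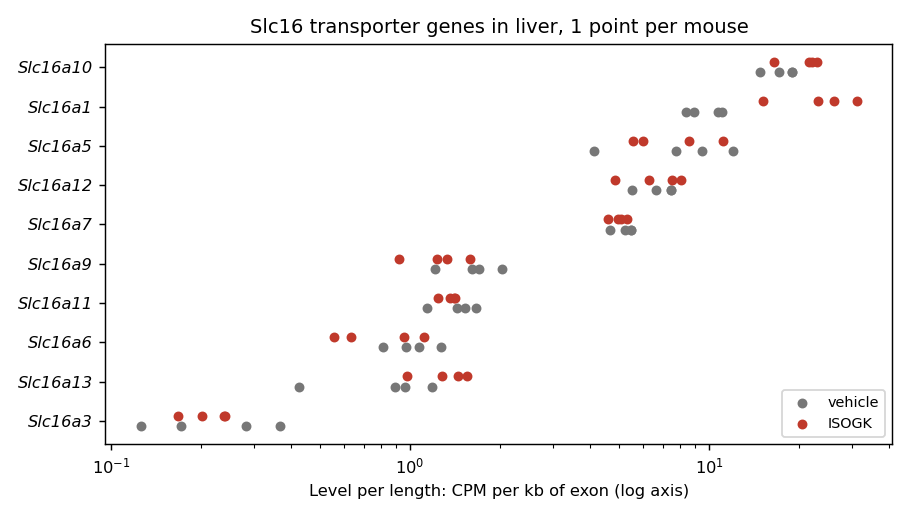
Level per length of 10 tested *Slc16* genes, in CPM per kb of exon on a log axis, with 1 point per mouse (grey, vehicle; red, ISOGK) and genes ordered by their vehicle mean. *Slc16a1* is the gene in which the red points (15.1 to 31.2) lie wholly to the right of the grey points (8.39 to 11.1).

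The other genes of ketone body synthesis and use were taken from a list of 10, of which 7 were tested. In edgeR, 1 was higher, 3 were lower and 3 did not pass, and the median log2FC of the 7 was -0.47, against 0.00 for all genes tested. The 3 lower genes encode cytosolic enzymes. *Acat3* and *Acat2* encode cytosolic thiolases, which supply acetoacetyl-CoA to sterol synthesis, and had log2FC values of -0.67 and -0.47 (SE 0.12 and 0.11, edgeR adjusted p = 0.00741 and 0.0239). They share 1011 of their 50-base stretches, 39.1% of those of *Acat2*, so reads could have been split between them. *Bdh2*, a cytosolic dehydrogenase gene, fell from 8.49 ± 0.897 to 4.16 ± 1.49 CPM, a log2FC of -1.03 (SE 0.22, adjusted p = 0.0185 in edgeR). The call for *Bdh2* was lost without vehicle-treated mouse 2 (adjusted p = 0.0654) or 4 (0.0515), and that for *Acat2* without vehicle-treated mouse 2 (0.0864), 3 (0.0615) or 4 (0.0676) or ISOGK-treated mouse 2 (0.0703). *Oxct1*, whose transferase is the entry to ketone body use, was at 9.73 ± 1.33 and 7.88 ± 1.1 CPM, with a log2FC of -0.30 (adjusted p = 0.225 in edgeR). *Aacs*, which activates acetoacetate in the cytosol for lipid synthesis, was at 22.9, 16.3, 55.4 and 18.3 CPM with vehicle and at 9.86, 4.75, 6.28 and 15.9 CPM with ISOGK. The groups did not overlap, and the log2FC of -1.62 did not pass edgeR (SE 0.53, adjusted p = 0.119), though it passed DESeq2 (adjusted p = 0.0329).

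The other carriers of monocarboxylates and their partner proteins formed a list of 15, of which 10 were tested and 0 were called in edgeR, DESeq2 or limma-voom. In edgeR, 1 of the 10 had an unadjusted p under 0.05, and the median log2FC was -0.05. *Bsg* encodes basigin, the membrane protein that MCT1 needs to reach the cell surface, and was at 229 ± 11.4 and 235 ± 21.1 CPM (SD, n = 4 per group). Its log2FC was 0.04 with an SE of 0.09 (adjusted p = 0.847 in edgeR), and it was -0.097 with library size as the only scaling. *Slc16a3*, which encodes MCT4, the lactate exporter of glycolytic muscle, held only 15 to 50 counts per library, with a log2FC of -0.16 (SE 0.34, adjusted p = 0.817 in edgeR). In edgeR, *Slc16a1* was the 1 gene called among the 11 *Slc16* genes tested, while with library size as the only scaling 1 more was called, as lower.

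*Acat1* belongs to the thiolases, and of 9 tested genes of thiolases and the trifunctional protein 4 were higher and 2 were lower, the latter being *Acat2* and *Acat3*. *Hadha* and *Hadhb*, the subunits of the trifunctional protein of mitochondrial beta-oxidation, rose by 0.56 and 0.62 on the log2 scale (edgeR adjusted p = 0.00467 and 0.00227). *Acaa1b* and *Acaa1a*, thiolases of the peroxisome, rose by 0.77 and 0.54 (edgeR adjusted p = 0.00893 and 0.0229). The call for *Acaa1a* was lost without vehicle-treated mouse 1 (adjusted p = 0.051) or 2 (0.0842) or ISOGK-treated mouse 2 (0.0665). The median log2FC of the 9 genes was 0.26, with 6 of them above 0 and 3 below.

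*Acat1* also ends the breakdown of isoleucine. Of 22 tested genes of branched-chain amino acid breakdown, 1 was higher and 2 were lower, with a median log2FC of -0.13. *Hsd17b10*, whose dehydrogenase acts just before ACAT1 in isoleucine breakdown, rose from 103 ± 7.9 to 212 ± 37.9 CPM, a log2FC of 1.05 (SE 0.13, adjusted p = 0.00121 in edgeR). *Mccc1* and *Hibadh*, which act in leucine and valine breakdown, fell by 0.43 and 0.34 on the log2 scale (edgeR adjusted p = 0.0461 and 0.0393). In the fits that each left out 1 of the 8 mice, the call was lost in 6 for *Mccc1* (adjusted p up to 0.132) and in 7 for *Hibadh* (up to 0.126).

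MCT1 also carries lactate and pyruvate. Of 10 genes of their conversion and mitochondrial use, 1 was higher, 1 was lower and 8 did not pass, with a median log2FC of 0.31. *Pdk4*, a kinase that turns off pyruvate dehydrogenase, had 8.88, 6.80, 7.05 and 8.04 CPM with vehicle and 16.5, 29.5, 42.3 and 49.3 CPM with ISOGK. As with *Slc16a1*, ISOGK-treated mouse 1 was the lowest and mouse 4 the highest of the treated group, and without mouse 4 the log2FC of *Pdk4* was 1.94 (adjusted p = 0.00878 in edgeR). The log2FC of *Pdk4* was 2.16 (SE 0.31, adjusted p = 0.00547 in edgeR), while its relative *Pdk2* fell by 0.45 on the log2 scale (adjusted p = 0.0102 in edgeR). *Ldha*, the lactate dehydrogenase subunit gene, was looked at after its values had been seen. It had 746 to 981 CPM with vehicle and 1095 to 3085 CPM with ISOGK, and its log2FC of 1.05 did not pass the test (SE 0.30, adjusted p = 0.0693 in edgeR).

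Of 11 genes with a role in the control of ketone body synthesis, 3 were higher and 0 were lower in edgeR, with 4 at an unadjusted p under 0.05 and 0 lower in DESeq2 and limma-voom. *Fgf21*, a fasting hormone of the liver, rose most, from 0.712 to 1.6 CPM over the vehicle-treated mice to 5.05 to 13.4 CPM over the ISOGK-treated mice. Its log2FC was 2.99 (SE 0.34, adjusted p = 0.00122 in edgeR). *Cpt1a*, the gate for fatty acids into mitochondria, and *Creb3l3*, a transcription factor of the fasted liver, rose by 0.60 and 0.43 on the log2 scale (edgeR adjusted p = 0.0371 and 0.0328). With 1 of the 8 mice left out, the call was lost in 5 fits for *Cpt1a* (adjusted p up to 0.118) and in 6 for *Creb3l3* (up to 0.105). *Ppara*, the nuclear receptor that drives the genes of fatty acid oxidation, was at 77.1 ± 6.33 and 80.5 ± 12 CPM (SD, n = 4 per group). Its log2FC was 0.06 (adjusted p = 0.791 in edgeR), or -0.062 with library size as the only scaling. *Ppargc1a*, a coactivator gene, had a log2FC of 0.35 with an SE of 0.33 (adjusted p = 0.562 in edgeR).

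**Figure D5:**
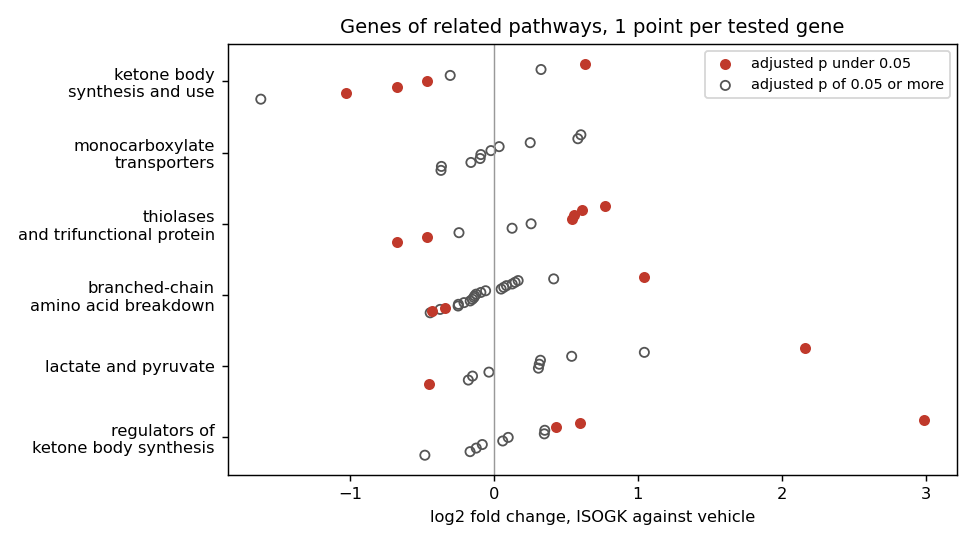
Log2 fold change, ISOGK against vehicle, of each tested gene of 6 related lists, with filled red points for an adjusted p under 0.05 in edgeR and open points for the rest. The ketone body, thiolase, branched-chain and lactate and pyruvate lists have red points on both sides of 0, and the list of other monocarboxylate carriers has none.

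Genes whose log2 CPM followed each of the 5 most closely over the 8 mice were named by Pearson's r, as a description of libraries that share the 2 groups. For *Slc16a1* these included *Lars* and *Zfp207*, with r of 0.987 and 0.986. Both were higher with ISOGK, with log2FC values of 0.52 and 0.85 (edgeR adjusted p = 0.023 and 0.00485). For *Acat1* they were *Gm4952*, *Gpd1* and *Thoc7*, with r of 0.988, 0.978 and 0.977 and log2FC values of 0.88, 0.85 and 0.45. *Bdh1* was followed most closely by *Inhbe* (r = 0.933), *Parp10* (0.894) and *Tcf3* (0.878). *Slc16a7* was followed by *Taok1* and *Pcmtd2* (r = 0.936 each) and *Braf* (0.925), and *Slc16a6* by *Fam53b* (0.968), *Osbpl11* (0.939) and *Pcca* (0.935). None of the latter 9 genes was called in edgeR.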

How the data were processed

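Liver RNA of 8 mice was sequenced. Per the study's methods, the reads were single-end, HISAT2 placed them on the mouse genome (build mm10 in the submitters' processing notes) and StringTie gave the raw values. The authors deposited these as counts, whole numbers for each gene symbol in 1 column per mouse, without normalization. Columns named DMSO were taken as vehicle, the solvent of the study's design.

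Genes were filtered with filterByExpr (minimum count 10, minimum total 15), scaled with TMM and tested with the robust quasi-likelihood test of edgeR 4.0.16 in R 4.3.3. The study names DESeq2 for normalization and no test. Standard errors are the log2 fold change divided by the square root of F. Log2 CPM used a prior count of 2. CPM per kb used the union of exons in GENCODE M21 (GRCm38, the same build as mm10), which matched 16211 symbols. Alternatives were DESeq2 1.42.0, limma-voom 3.58.1, other scalings and filters, the replicate number as a block and each mouse left out. P-values measure the spread between these libraries. The labels number the libraries within each group and name no mouse, and they were taken as separate mice because the study gives n = 4. Within groups the libraries differed by far more than counting noise (chi-square 18.1 to 99.8 per gene).

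The genes and lists were chosen with earlier results of these data known. Named were the 5 genes, list genes passing edgeR (up to 6 a list), 10 genes irrespective of outcome and the 3 genes of at least 10 CPM most alike to each; other names are marked, and some genes that this rule named are not reported here. The summed levels of the adipocyte, lymphocyte, red blood cell, stellate cell, sinusoidal endothelium and hepatocyte marker lists overlapped between the groups. The fits were first tested on simulated counts with known changes in 198 tested genes. At an adjusted p under 0.05, edgeR recovered 171 of these and falsely called 15 others. DESeq2 recovered 173 with 22 false calls, and limma-voom 166 with 15.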

Additional observations from a re-analysis of the deposited data

Results flagged for a closer look

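In 4 of 72 groups of 4 values examined, 1 mouse lay further from the others than Dixon's critical value for 4 values allows, while chance alone gives 3.6. None of these was a group of the 5 genes of ketone body synthesis and export or of their ratios. Vehicle-treated mouse 2 was low for *Acaa1a* (87.1 CPM against 107.5 to 108.4, a gap of 0.955 of the range) and for *Creb3l3* (164.9 CPM against 208.6 to 216.2, a gap of 0.853). *Aacs* had 55.4 CPM in vehicle-treated mouse 3 against 16.3 to 22.9 in the others, a gap of 0.833. *Bsg* had 266 CPM in ISOGK-treated mouse 4 against 220.5 to 226.6 in the others, a gap of 0.866.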

How the results depend on the processing

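Under 16 alternatives, *Slc16a1* stayed past the threshold (log2 fold change 1.14 to 1.46, adjusted p up to 0.0214), and *Slc16a6*, *Slc16a7* and *Bdh1* stayed short of it. With DESeq2's Wald test *Acat1* passed at 0.29, 2 of the 5 genes were called higher, and the other ketone body genes and the lactate and pyruvate genes had 2 and 4 higher calls. With 1 mouse left out, *Bdh1* ranged from -0.083 to 0.058, *Bsg* from -0.029 to 0.065, *Ppara* from -0.006 to 0.135 and *Slc16a3* from -0.36 to 0.15; with library size alone *Bsg* was -0.097 and *Ppara* -0.062. Over the same fits, calls ranged from 1 to 2 higher and 1 to 3 lower for ketone body genes, 0 to 1 lower for carriers, 1 to 2 lower for thiolases, 0 to 3 lower for branched-chain genes, 1 to 5 higher for lactate and pyruvate genes and 1 to 3 higher for regulators. With library size alone, which moved the median of all genes to -0.13, 1 carrier was lower and 1 regulator higher. Branched-chain genes had 1 lower call with limma-voom and 1 without the robust option, and lactate and pyruvate genes had 2 higher calls without it. Expression gave no sign that the replicate numbers pair the mice (correlation of deviations between mice of the same number -0.014 to 0.085). Vehicle-treated mice matched best with numbers other than their own in 3 of 4. A pairing in the handling of the mice need not show in these values. With the replicate block, *Slc16a1* was 1.26, and calls were 0 lower for branched-chain genes, 2 higher for lactate and pyruvate genes and 1 higher for regulators. With the longest transcript as length, vehicle levels were 99.6 CPM per kb for *Acat1*, 33.1 for *Bdh1* and 5.62 for *Slc16a7*. Of 16 other named genes called, 9 were called in every alternative. The causes were not tested. Of the 5 genes, *Slc16a6* had the fewest counts, 48 to 123 per library, and depth limits its precision.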
